A study of Mus musculus with 66 samples.

Results

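The EGF receptor family, with the docking receptor Met, their adaptors and the epithelial kinase Ptk6, was followed across mouse small intestinal organoids that were driven toward stem cells or toward differentiated cells. The genes were chosen by symbol, as the entries of the RNA table for Egfr, Erbb2, Erbb3, Lrig1, Ptk6, Met, Grb2, Shc1 and Errfi1. Of these 9 genes, 8 had 1 transcript each, out of 9481 transcripts of 8978 gene symbols, and all 8 passed the filter on low counts. Errfi1 mRNA was not analysed here, so for this feedback inhibitor of EGFR only chromatin is described.

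Organoids came from the small intestine of Lgr5 GFPDTR/+ mice on a mixed C57BL/6 and 129/ola background, in which stem cells carry a GFP reporter and the diphtheria toxin receptor, and were cultured in 3 media that all held EGF at 50 ng/mL and Noggin. ENR, the conventional medium, added 5% R-Spondin-1 conditioned medium and gives a mixture of cells. CV added 3 µM CHIR99021, an inhibitor of the kinase GSK3, and 1 mM valproic acid, a histone deacetylase inhibitor, to ENR for 5 days. The study describes CV as enriched for stem cells. EN lacked R-Spondin-1 for 2.5 days and enriches for enterocytes. Because EGF was supplied to every culture, the receptors were measured in the constant presence of the ligand.

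EGFR, ERBB2 and ERBB3 are receptor tyrosine kinases of the plasma membrane that signal as pairs. EGFR binds EGF, ERBB2 has no known ligand of its own and acts as a partner, and ERBB3 binds neuregulins, has little kinase activity and passes the signal on through PI3K. In the intestine, EGF keeps crypt stem cells dividing, and LRIG1, a membrane protein that promotes the breakdown of ERBB receptors, marks crypt stem cells.

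RNA was sequenced from 4 libraries per culture, with 5630951 to 8859744 expected counts per library, so that 3 counts corresponded to 0.361 to 0.642 CPM (counts scaled to a common library total, relative to the TMM-normalized library size). The labels do not say whether libraries came from separate cultures, so p-values measure the spread between libraries, which may be technical. The 10 most abundant transcripts took 5.14 to 5.21% of the counts in CV and 11.3 to 11.8% in EN. Lgr5 had 90.1 CPM in CV, 129 in ENR and 1.81 in EN. Of 7 stem cell marker transcripts, 2 were higher and 4 lower in CV than in ENR. Of 11 proliferation marker transcripts, 0 were higher and 9 lower, where 30.2% of all transcripts were higher and 29.8% lower in CV. From CV to EN, 35.2% of all transcripts rose and 41.2% fell. In this contrast all 7 stem cell and all 11 proliferation marker transcripts fell, and 10 of 11 enterocyte markers rose. All 6 goblet, 5 enteroendocrine and 5 tuft cell markers that were tested rose too. EN was therefore not a pure enterocyte culture by its markers: Muc2, the goblet cell mucin, had 739 CPM there against 3.03 in CV. The same 6 goblet, 5 enteroendocrine and 5 tuft cell transcripts were also all higher in EN than in ENR, where 35.5% of all transcripts were. The study, which shows mRNA beside protein, describes Defa6, Muc2, Dclk1 and Reg4 as not enriched in EN over ENR. Of 7 Paneth cell transcripts, 2 rose and 5 fell from CV to EN. All 7 were lower in EN than in ENR, where 37.2% of all transcripts were. Of 6 epithelial markers, 2 rose and 3 fell, and the summed level of all 6 was 7357 to 7555 TPM in CV and 5643 to 6560 TPM in EN. In bulk RNA, fewer cells of a type and less RNA per cell cannot be told apart, and the part of cell composition in the values below was not tested.

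From CV to EN, the transcripts of Erbb3, Ptk6, Erbb2 and Shc1 rose and those of Lrig1, Egfr and Met fell, while Grb2 did not pass the test. Erbb3 rose 7.81-fold, Ptk6 5.39-fold and Erbb2 3.36-fold, whereas Lrig1 fell to a level 2.20-fold lower and Egfr, the receptor of the supplied ligand, to one 1.22-fold lower. These 7 of 8 calls are to be read against a background of 76.4% of all 9288 transcripts tested, with 35.2% higher and 41.2% lower in EN, at an adjusted p under 0.01 from edgeR's quasi-likelihood test. The median log2 fold change of the 8 transcripts was 0.23, beside -0.08 for all transcripts.

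**Figure D1:**
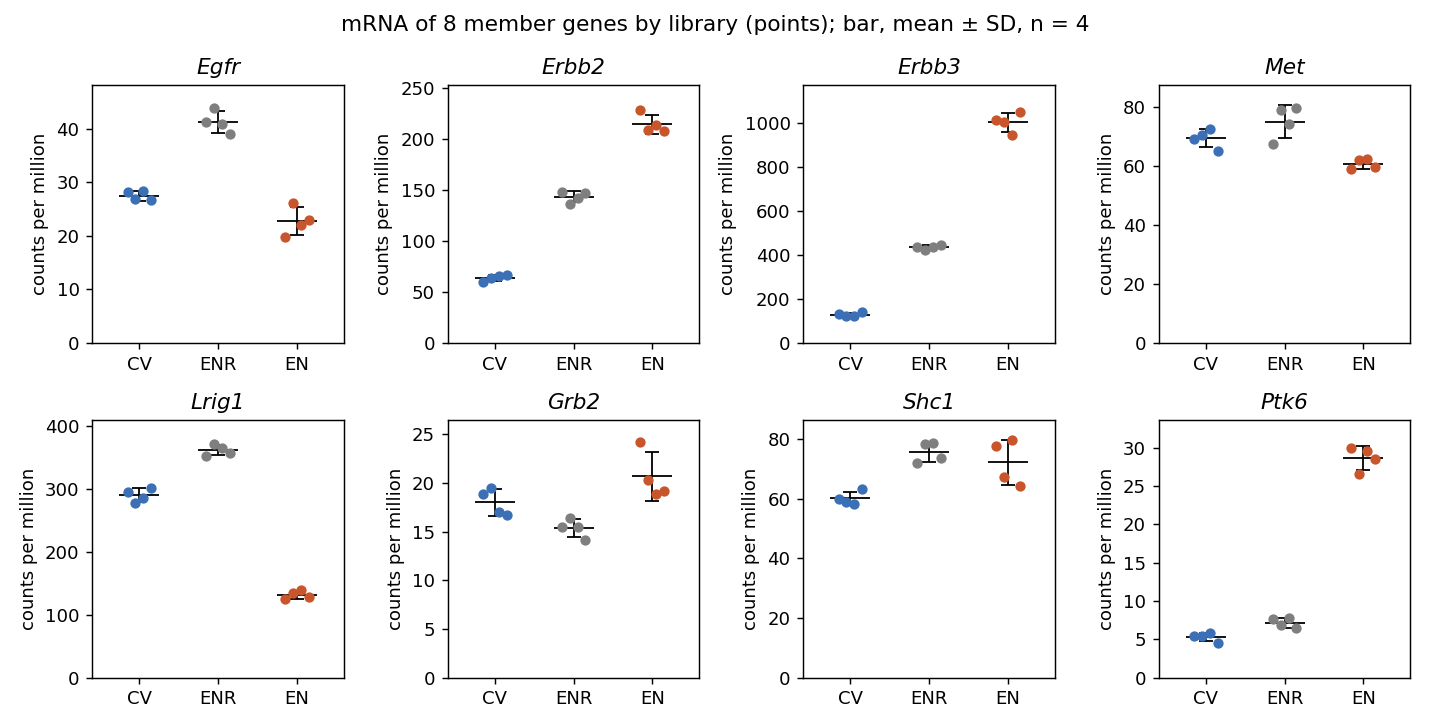
Each panel plots 1 gene, with CPM on a linear axis from 0, a point for each of 4 libraries per culture, and a bar at the mean with its SD. Erbb2 and Erbb3 climb from CV through ENR to EN without overlap, Egfr and Lrig1 are highest in ENR, and the 4 EN libraries of Ptk6, between 26.6 and 29.9, lie above all others.

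Among the receptors, Erbb3 (NM_010153.1, mm9 chr10:128004579-128026708, minus strand) had the largest change. Its 4 CV libraries had 131, 122, 122 and 140 CPM, its ENR libraries 438, 421, 438 and 448, and its EN libraries 1015, 1008, 945 and 1051. No libraries of different cultures overlapped, and the order was CV, ENR, EN. Mean levels in the same order of cultures were 129 ± 8.52 CPM (SD, n = 4), 436 ± 11 and 1005 ± 44.2. The log2 fold change was 2.96 (SE 0.049, adjusted p = 9.7e-17, edgeR) from CV to EN and 1.20 (SE 0.045, adjusted p = 1.1e-12) from ENR to EN, and CV lay 3.39-fold below ENR.

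Erbb2 (NM_001003817.1, mm9 chr11:98273784-98299030, plus strand), the partner receptor without a ligand of its own, followed the same order with smaller steps. It had 59.8, 63.4, 65.3 and 67.0 CPM in CV, 148, 136, 143 and 147 in ENR and 228, 209, 214 and 207 in EN. All EN values were above all ENR values, and those were all above CV. The log2 fold change was 1.75 (SE 0.048, adjusted p = 2.5e-14, edgeR) from CV to EN, 0.58 (SE 0.044, adjusted p = 7.5e-09) from ENR to EN and -1.17 (SE 0.048, adjusted p = 2e-11) for CV against ENR. When libraries were scaled to the spike-in RNA, the difference between EN and ENR was 0.08 (adjusted p = 0.71) and the call was lost, but the median of all transcripts was then -0.52, so that Erbb2 lay 0.60 above it, against 0.59 in the edgeR test.

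Egfr (NM_207655.2, mm9 chr11:16652206-16818161, plus strand), the receptor for the EGF in the medium, did not share this order. Its CPM was 28.2, 26.8, 28.4 and 26.6 in CV, 41.4, 43.9, 40.8 and 39.0 in ENR and 19.8, 26.1, 22.1 and 23.0 in EN. The ENR libraries were the highest and the EN libraries the lowest, although EN replicate 2 came within 1 CPM of the lowest CV library. Egfr was 1.82-fold lower in EN than in ENR (log2 -0.87, SE 0.077, adjusted p = 4.8e-08, edgeR) and 1.5-fold lower in CV than in ENR (log2 -0.58, SE 0.073, adjusted p = 4.4e-06). The smaller fall from CV to EN (log2 -0.28, SE 0.079, adjusted p = 0.0041) was not called with DESeq2 (-0.22, adjusted p = 0.049) or without CV replicate 1, CV replicate 3 or EN replicate 1 (adjusted p from 0.011 to 0.017), and on the deposited mRNA copy numbers it was 0.39 (adjusted p = 0.092), where the median of all transcripts was 0.62, so that Egfr lay 0.23 below that median and 0.21 below it in the edgeR test.

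Met (XM_011241043.2, mm9 chr6:17413800-17523980, plus strand), the receptor of hepatocyte growth factor, varied least among the receptors. Its libraries had 69.1, 70.3, 72.4 and 65.1 CPM in CV, 67.2, 78.9, 73.9 and 79.4 in ENR and 58.8, 61.9, 62.3 and 59.5 in EN. CV and ENR overlapped, and EN lay below both. From CV to EN the log2 fold change was -0.19 (SE 0.059, adjusted p = 0.0067, edgeR), which was lost with DESeq2 (-0.13, adjusted p = 0.098) and without any 1 of CV replicates 1, 2 and 3 and EN replicates 1, 2 and 4, and from ENR to EN it was -0.31 (adjusted p = 0.0002). On the deposited copy numbers Met had log2 differences of 0.55 and 0.71, which were below the medians of all transcripts there, 0.62 and 0.88.

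Lrig1 (XM_006505621.2, mm9 chr6:94554523-94650152, minus strand), the membrane inhibitor of the ERBB receptors, was the only member with more than a 2-fold fall in EN by edgeR. Its CPM was 295, 277, 286 and 302 in CV, 353, 371, 365 and 358 in ENR and 126, 134, 139 and 128 in EN. Every EN library had 139 CPM or less and every other library 277 or more. The log2 fold change was -1.14 (SE 0.041, adjusted p = 7.1e-13, edgeR) from CV to EN, -1.46 (SE 0.041, adjusted p = 4.7e-14) from ENR to EN and -0.32 (SE 0.038, adjusted p = 3e-06) for CV against ENR. On the deposited copies, with a median of 0.62 for all transcripts, Lrig1 was at -0.40 and no longer passed (adjusted p = 0.14). Lrig1 thus fell in the same contrast as the 7 stem cell markers. Their summed level went from 302 to 337 TPM in CV to 18.4 to 21.2 TPM in EN, and was 931 to 1019 TPM in ENR.

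The adaptors changed little. Grb2 (NM_001313937.1, mm9 chr11:115505359-115569911, minus strand), the SH2 adaptor that couples receptors to SOS and RAS, had 18.9, 19.5, 17.0 and 16.7 CPM in CV, 15.5, 16.4, 15.5 and 14.1 in ENR and 24.3, 20.3, 18.9 and 19.1 in EN. EN overlapped CV and lay above ENR. The rise from ENR to EN was 0.43 on the log2 scale (SE 0.10, adjusted p = 0.00099, edgeR), but it was -0.07 with spike-in scaling, where the median of all transcripts was -0.52, and did not pass on TPM. Between EN and CV the difference was 0.20 (adjusted p = 0.068), and it was negative with spike-in scaling and on TPM, though above the medians of all transcripts, -0.49 and -0.34.

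Shc1 (NM_001113331.2, mm9 chr3:89222365-89233937, plus strand), the adaptor that recruits GRB2 to phosphorylated receptors, had 59.8, 59.0, 58.3 and 63.1 CPM in CV, 71.9, 78.2, 78.5 and 73.6 in ENR and 77.5, 67.2, 79.6 and 64.1 in EN. CV was the lowest culture, and EN and ENR overlapped. Shc1 rose by 0.26 (SE 0.067, adjusted p = 0.002, edgeR) from CV to EN, but was at -0.16 with spike-in scaling and -0.06 on log2(TPM + 1), both above the same medians of all transcripts. It was 0.33 lower in CV than in ENR on the log2 scale (adjusted p = 0.00042).

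Ptk6 (NM_009184.2, mm9 chr2:180928426-180937494, minus strand), an intracellular tyrosine kinase of epithelia that binds ERBB receptors and that the study uses as an enterocyte marker, was the only member whose CV and ENR levels were both low and whose EN level was several times higher than both. It had 5.39, 5.47, 5.83 and 4.58 CPM in CV, 7.68, 6.87, 7.74 and 6.42 in ENR and 29.9, 26.6, 29.6 and 28.5 in EN. The gap between EN and the other cultures was far larger than the spread within any culture, while CV and ENR were close without overlapping. The CV and ENR libraries held 38.2 to 59.9 expected counts of Ptk6 each, so these levels are the least precise of the 8. The log2 fold change was 2.43 (SE 0.11, adjusted p = 6.2e-12, edgeR) from CV to EN and 2.00 (SE 0.10, adjusted p = 5.7e-11) from ENR to EN. The difference between CV and ENR was -0.43 (SE 0.12, adjusted p = 0.0067), and it was lost with DESeq2 (adjusted p = 0.018) and without any 1 of CV replicates 1, 2 and 4 and ENR replicates 1 and 3 (-0.45 to -0.37).

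**Figure D2:**
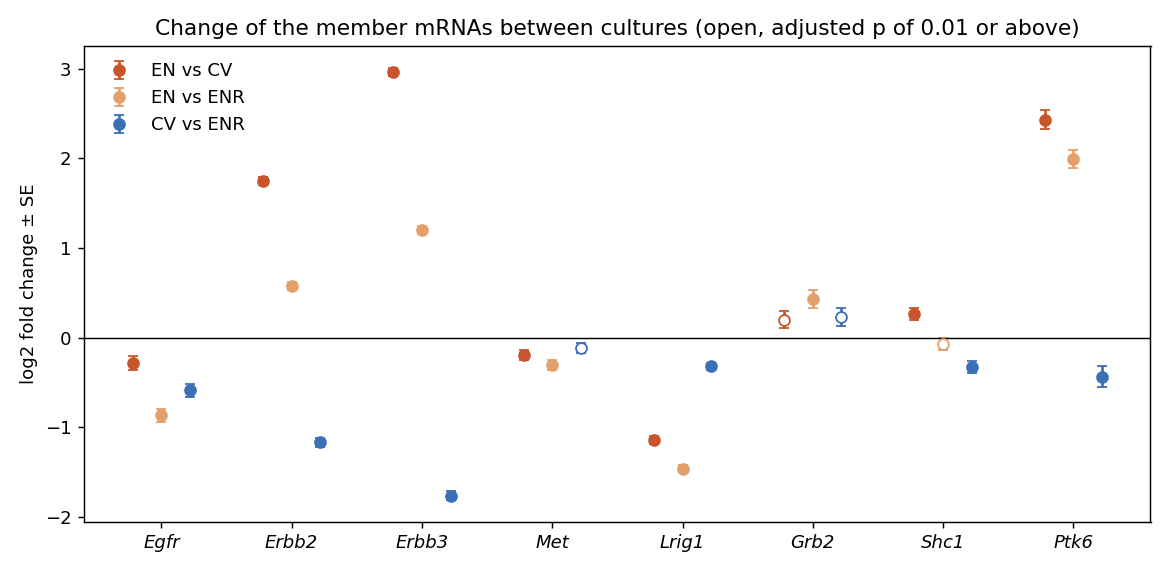
The log2 fold change of each transcript (vertical axis, with its SE) is drawn for EN against CV, EN against ENR and CV against ENR, with open circles where the adjusted p was 0.01 or above. Erbb3 at 2.96 and Lrig1 at -1.14 mark the extremes for EN against CV. Grb2 and Shc1 for EN against CV change sign with spike-in scaling and on TPM, and Egfr and Met do so on the deposited copies, while each stays on the same side of the median of all transcripts.

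Against the mixed culture, 4 of 8 transcripts were higher in EN (Erbb2, Erbb3, Grb2, Ptk6) and 3 lower (Egfr, Lrig1, Met), where 72.7% of all transcripts were called, 35.5% higher and 37.2% lower. In CV against ENR, none was higher and 6 were lower, where 60.0% of all transcripts were called, 30.2% higher and 29.8% lower in CV. The 6 were Egfr, Erbb2, Erbb3, Lrig1, Ptk6 and Shc1. The split by direction depended on the scaling. For EN against CV the members divided into 4 higher and 3 lower, but into 3 and 3 with spike-in scaling and 5 and 0 on the deposited copies, where the median of all transcripts moved to -0.49 and 0.62 and the share of calls that were higher went from 46.0% to 25.6% and 78.3%. With log2(TPM + 1) the split was 3 and 3, with 31.3% of all calls higher. For EN against ENR the split was 2 and 4 with spike-in scaling and 6 and 0 on the copies, with medians of -0.52 and 0.88 and 20.4% and 87.8% of calls higher, against 48.9%. For CV against ENR it was 0 and 3 with spike-in scaling, 0 and 2 on the copies and 1 and 4 on log2(TPM + 1), with 39.4%, 76.0% and 66.0% of calls higher, against 50.4%. Relative to the median of all transcripts under each of these scalings, the EN against CV values of Erbb2, Erbb3, Ptk6, Shc1 and Grb2 lay above it and those of Lrig1, Egfr and Met below it, as in the edgeR test. Over the 22 settings tried for that contrast, Erbb3 ranged from 2.54 to 4.06, Erbb2 from 1.24 to 2.63, Ptk6 from 1.30 to 2.89 and Lrig1 from -1.57 to -0.40.

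Levels can be compared between genes on TPM, which counts transcripts per length. In CV the most abundant transcript was Lrig1 with a mean of 96.1 TPM, followed by Erbb3 (52.7), Shc1 (27.9), Erbb2 (20.9), Met (17.4), Grb2 (11.3), Egfr (7.45) and Ptk6 (4.00), and no neighbours in that order overlapped. In EN the order was led by Erbb3 with 330 TPM and Erbb2 with 56.2 TPM, ahead of Lrig1 with 35.1 TPM. Egfr had moved to the last place with 4.95 TPM, below Ptk6 at 17.2 TPM. Met, from 11.9 to 12.4 TPM, and Grb2, from 9.40 to 12.4 TPM, overlapped in EN. In ENR, Erbb3 (160 TPM) and Lrig1 (107 TPM) led, and Ptk6 (4.79 TPM) was last. The summed TPM of the 8 transcripts was 230 to 249 in CV, 378 to 385 in ENR and 474 to 513 in EN.

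Ratios of TPM within a library do not depend on how libraries are scaled against each other, and they describe the make-up of the receptor transcripts. The ratio of Erbb3 to Erbb2 was 2.74, 2.41, 2.35 and 2.62 in the CV libraries, 3.71, 3.89, 3.85 and 3.83 in ENR and 5.58, 6.06, 5.55 and 6.36 in EN. The ratio of Egfr to Erbb2 was 0.391, 0.352, 0.360 and 0.330 in CV, 0.232, 0.268, 0.238 and 0.221 in ENR and 0.0722, 0.104, 0.0859 and 0.0921 in EN. In both ratios the cultures were ordered CV, ENR, EN without overlap, toward more Erbb3 and less Egfr per Erbb2 transcript.

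The ratio of the inhibitor Lrig1 to Egfr was lowest in EN, with a geometric mean of 12.9 in CV, 10.7 in ENR and 7.11 in EN. Ptk6 to Erbb2 was 0.191 in CV, 0.114 in ENR and 0.305 in EN. Met to Egfr was 2.33 in CV and 2.48 in EN, which overlapped (log2 difference 0.09, p = 0.343, exact two-sided permutation test), and 1.68 in ENR. Of 15 ratios and contrasts, the other 14 had p = 0.0286 in the same exact test, the smallest that 4 against 4 libraries allow, and an adjusted p of 0.0306. The same 14 passed on ratios of expected counts, which are not independent of the TPM ratios. The ratio of Errfi1 to Egfr could not be made.

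**Figure D3:**
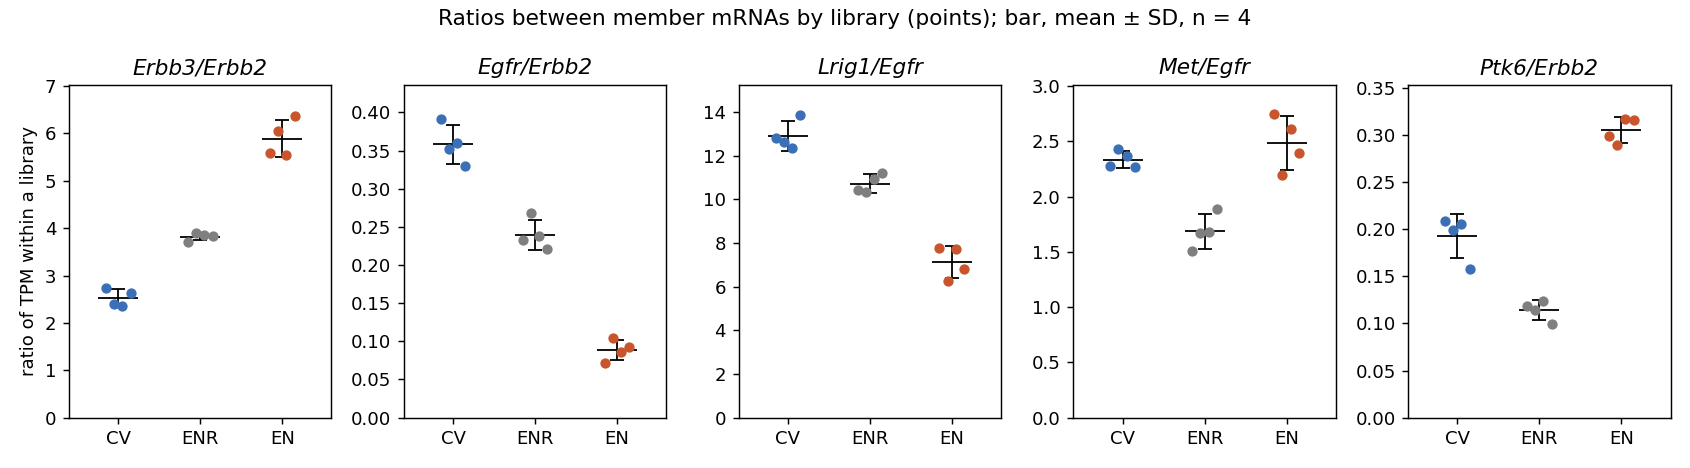
Each panel plots a ratio of 2 transcripts' TPM within a library, on a linear axis from 0, with a point per library and the mean with its SD (n = 4 per culture). Erbb3/Erbb2 climbs from between 2.35 and 2.74 in CV to between 5.55 and 6.36 in EN, and Met/Egfr overlaps between CV and EN.

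The rest of the pathway was followed through 6 lists, whose counts are to be read against 35.2% of all transcripts higher and 41.2% lower in EN than in CV and a median of -0.08. Of 5 transcripts for ligands and ligand release, 1 was higher and 3 lower in EN than in CV, with a median log2 fold change of -0.23. Btc, which encodes the EGFR and ERBB4 ligand betacellulin, went from 69.0 ± 8.41 CPM in the CV libraries to 18.6 ± 1.88 in EN (log2 -1.90, SE 0.10, adjusted p = 1.2e-10, edgeR). Rhbdf2, an inactive rhomboid that helps the sheddase ADAM17 mature, had 19.9 ± 1.80 CPM in CV and 26.3 ± 1.80 in EN (0.40, SE 0.10, adjusted p = 0.002), but -0.02 with spike-in scaling and 0.08 on log2(TPM + 1), neither of which passed, where the medians of all transcripts were -0.49 and -0.34.

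Of 11 other receptor and feedback transcripts, 6 were higher and 3 lower (median 0.31). Lrig3, a relative of Lrig1, rose from 34.2 ± 1.25 CPM in CV through 65.8 ± 2.42 in ENR to 112 ± 2.77 in EN (log2 1.71, SE 0.047, adjusted p = 2.6e-14, edgeR), the opposite direction to Lrig1. Dusp6, an ERK phosphatase whose transcript is induced by ERK, fell from 72.0 ± 3.56 to 36.1 ± 4.19 CPM (-0.99, SE 0.071, adjusted p = 3e-09), with -0.26 on the copies (adjusted p = 0.28), where the median of all transcripts was 0.62.

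Of 28 adaptor and Ras-MAPK transcripts, 12 were higher, 8 lower and 8 not called (median 0.12), where 76.4% of all transcripts were called. The scaffold Ksr1 rose from 11.6 ± 1.11 to 50.9 ± 4.09 CPM (2.14, SE 0.087, adjusted p = 3.1e-12, edgeR), and a transcript of the kinase Braf fell from 46.8 ± 1.76 to 20.8 ± 1.16 CPM (-1.17, SE 0.063, adjusted p = 8.7e-11). Of 17 PI3K-Akt, Plcg and Stat transcripts, 7 were higher and 4 lower (median -0.05). There the exchange factor Vav1 had 2.05 ± 0.742 CPM in CV and 14.3 ± 1.45 in EN (2.79, SE 0.23, adjusted p = 2.1e-08), and the phospholipase Plcg2 had 51.4 ± 1.12 and 28.3 ± 2.47 (-0.85, SE 0.069, adjusted p = 1.4e-08). In ENR, Plcg2 had 15.2 CPM, so that EN was below CV but above ENR (0.90, SE 0.078, adjusted p = 3.9e-08, edgeR). VAV1 is best known from blood cells and PLCG2 from B cells and tuft cells. The tuft cell marker Dclk1 had 0.383 CPM in CV and 35.8 in EN. The 6 mesenchymal and immune markers summed to 2.84 to 4.02 TPM in CV and 16.3 to 20.8 TPM in EN, with 2 of the 5 tested called higher and Cd3e at 0, and their part in the Vav1 value was not tested.

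Of 31 receptor endocytosis transcripts, 10 were higher, 4 lower and 17 not called (median 0.15), beside the same 76.4% called among all transcripts. A transcript of the AP-2 subunit Ap2a2 rose from 67.1 ± 19.8 to 162 ± 38.2 CPM (1.26, SE 0.27, adjusted p = 0.00052, edgeR), and Stam, which sorts ubiquitinated receptors on endosomes, fell from 99.1 ± 6.98 to 48.6 ± 6.11 CPM (-1.03, SE 0.077, adjusted p = 5.3e-09). Of 21 transcripts of Ptk6 relatives and partners, 10 were higher and 7 lower (median 0.03). Stap2, an adaptor that PTK6 phosphorylates, rose from 30.9 ± 2.85 CPM in CV and 44.1 ± 2.63 in ENR to 143 ± 5.76 in EN (2.21, SE 0.064, adjusted p = 4.5e-14). A transcript of the related kinase Fyn had 20.1 to 22.8 CPM in CV, 0 to 0.503 CPM in ENR and 0 to 0.428 CPM, at most 2 counts, in EN. It was thus near absent in ENR as well as in EN, and these did not differ by the test (log2 0.19, adjusted p = 0.85, edgeR). Braf, Plcg2 and Stam lost the call on the copies, with adjusted p values of 0.07, 0.58 and 0.24, although each lay below the median of all transcripts there, and Ap2a2 did so on log2(TPM + 1) with 0.017.

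Among 7999 candidate transcripts with a mean of at least 10 CPM, those most like each member over the 12 libraries were found by Pearson's r of log2(CPM + 1), a description that rests mostly on the 3 culture means. For Erbb3 they were Cfb (r = 0.9988) and Slc27a2 (0.9985), for Erbb2 Ctss (0.9983) and Gcg (0.9969), and for Ptk6 Fbxo25 (0.9971) and Map3k2 (0.9969). Lrig1 was most like Knstrn (0.9989) and Hist1h3a (0.9986), and Egfr most like Glod4 (0.9893) and Rpl7 (0.9886). For Met, Grb2 and Shc1 the highest values were lower, at 0.9389 with Wdr92, 0.956 with Lipe and 0.9432 with Pcif1.

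Chromatin was measured as ATAC-seq, which marks open DNA, in 4 libraries per culture, and as ChIPmentation of H3K27ac, H3K4me3 and H3K27me3, marks of active regulatory regions, active promoters and Polycomb repression, in 3 libraries per culture. The deposited values are normalized scores per region of the union of peaks on mm9, and the summed ATAC scores rose from CV through ENR to EN without overlap. At the 8 genes lay 96 regions, of which 16 were within 500 bp of an annotated start site and 80 elsewhere in the gene or in its 10 kb upstream. Coordinates are given as deposited.

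ATAC scores differed between the cultures at 44 of the 96 regions (limma F test, adjusted p under 0.05), where 39.7% of all 94166 regions did. From CV to EN, 26 of the 96 were higher (19.6% of all regions) and 14 lower (15.6%). From ENR to EN, 10 were higher (11.6%) and 13 lower (12.5%), and CV had 2 higher (5.11%) and 20 lower (10.7%) than ENR. H3K27ac differed at 9 of 96 (6.65% of all), and by the contrast of EN with CV 7 were higher in EN (5.07%) and 2 lower (1.96%). H3K4me3 differed at 4 of the 87 regions tested (6.38%), with 3 higher in EN than in CV (2.75%) and 0 lower by limma (2.15%), and H3K27me3 differed at 0 of 96 (0.984%). For H3K27me3, limma gave an unadjusted p under 0.05 at 7 regions and a smallest adjusted p of 0.11, and in simulated data the test found 1.5% of 2-fold changes in this mark. A 2-fold change in H3K27me3 at these genes would thus mostly have been missed. In such simulated data 39% of 2-fold changes were found for H3K27ac and 83% for H3K4me3. A region without an H3K27ac call may thus still differ. Whether these shares hold at regions with low scores was not tested.

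At the Erbb3 promoter over the first exon, H3K27ac rose in the order of the transcript while the ATAC scores overlapped between cultures. The promoter region (chr10:128025566-128027153, over the first exon, minus strand gene) had H3K27ac scores of 106, 92 and 63 in CV, 201, 159 and 165 in ENR and 430, 302 and 385 in EN. The cultures were separate and in the order of the mRNA. The log2 difference was 2.10 (SE 0.20, adjusted p = 3.3e-08, limma) from CV to EN and 1.08 (adjusted p = 0.003) from ENR to EN. The ATAC scores of the same region were 74, 64, 67 and 106 in CV, 76, 98, 102 and 102 in ENR and 85, 85, 68 and 104 in EN, which overlapped and did not pass (F test, adjusted p = 0.32).

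A second Erbb3 region just upstream (chr10:128027187-128027669) had H3K27ac scores of 17, 30 and 14 in CV, 79, 75 and 51 in ENR and 74, 58 and 68 in EN, higher in both other cultures than in CV (F test, adjusted p = 0.0014, limma). In the first intron, the region at chr10:128024600-128025128 had 25, 18 and 15 in CV, 61, 35 and 46 in ENR and 75, 55 and 114 in EN (adjusted p = 0.0024). Of the 9 regions with an H3K27ac difference, 4 were at Erbb3, all of them higher in EN than in CV. Summed over all regions, H3K27ac scores were also higher in EN (1622103 to 1760511) than in CV (1345873 to 1406651). Without the trend of the spread on the mean none of the 9 passed, the promoter included, and the intronic region also lost its call without EN replicate 4.

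At Erbb2, the promoter region (chr11:98273606-98275466, first exon) had H3K4me3 scores of 118, 106 and 102 in CV, 150, 156 and 155 in ENR and 163, 189 and 157 in EN. EN exceeded CV by 0.64 on the log2 scale (SE 0.09, adjusted p = 0.0075, limma), a call lost after quantile normalization (0.15). Its ATAC scores were 23, 30, 25 and 26 in CV, 40, 46, 34 and 42 in ENR and 40, 36, 22 and 33 in EN, highest in ENR (F test, adjusted p = 0.031), a call lost without any 1 of CV replicates 1, 3 and 4 and ENR replicates 1, 2 and 4. At an internal start site in an intron (chr11:98288017-98288180) the scores were low, 2, 2, 5 and 2 in CV and 14, 11, 5 and 10 in EN (log2 1.55, SE 0.34, adjusted p = 0.0014).

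The Egfr promoter was most open in EN, the culture with the lowest CPM of its transcript. The promoter region (chr11:16651964-16653748, first exon) had ATAC scores of 87, 75, 83 and 85 in CV, 122, 93, 124 and 102 in ENR and 149, 154, 168 and 156 in EN. The 3 cultures did not overlap, and EN was 0.92 higher than CV (SE 0.11, adjusted p = 3.9e-06, limma) and 0.51 higher than ENR (adjusted p = 0.0022) on the log2 scale. Of 22 regions at Egfr, 14 differed in ATAC between the cultures, where 39.7% of all regions did. In EN 10 were higher (19.6% of all regions) and 4 lower (15.6%) than in CV. Against ENR, 6 were higher (11.6%) and 4 lower (12.5%) in EN. For H3K27ac 1 of the 22 was called between EN and CV, lower in EN (1.96%). Of the 4 lower than in CV, 3 lay next to each other over the last exons (chr11:16814795-16815696), named after their values were seen, with log2 differences of -2.10, -1.33 and -1.65 and adjusted p values of 4e-05, 0.002 and 0.00018.

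The Egfr region with the lowest p lay in an intron (chr11:16704066-16704478) and had ATAC scores of 38, 32, 32 and 41 in CV, 46, 54, 57 and 62 in ENR and 98, 127, 130 and 130 in EN. It rose without overlap at each step (EN against CV 1.73, SE 0.14, adjusted p = 5.4e-08, limma). Its H3K27ac scores were 12, 24 and 6 in CV, 3, 6 and 2 in ENR and 1, 9 and 15 in EN, which did not pass (F test, adjusted p = 0.3). Its central 300 bases (mm9, chr11:16704123-16704422, plus strand) are shown because they lie in the region with the lowest p at a gene whose CPM did not rise in EN. Capitals mark the letters CAAAGNNCA, the HNF4-type motif searched on both strands.
Egfr intron: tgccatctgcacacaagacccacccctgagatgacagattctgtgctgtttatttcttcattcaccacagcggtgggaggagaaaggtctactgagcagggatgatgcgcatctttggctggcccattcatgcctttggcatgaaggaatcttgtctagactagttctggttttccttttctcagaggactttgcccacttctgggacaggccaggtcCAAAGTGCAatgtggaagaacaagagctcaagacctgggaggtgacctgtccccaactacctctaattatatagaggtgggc

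Met showed the same pattern at one intronic region. It lay at chr6:17491598-17492090 and had ATAC scores of 4, 3, 2 and 5 in CV, 14, 10, 8 and 6 in ENR and 25, 45, 32 and 37 in EN, without overlap. The log2 difference from CV to EN was 3.01 (SE 0.28, adjusted p = 2.7e-07, limma), and that from ENR to EN was 1.79 (adjusted p = 0.00015), while Met had its lowest CPM in EN. The central 300 bases (mm9, chr6:17491695-17491994, plus strand) are shown with capitals for an HNF4-type match on the other strand and for TTTATG, the CDX-type motif.
Met intron: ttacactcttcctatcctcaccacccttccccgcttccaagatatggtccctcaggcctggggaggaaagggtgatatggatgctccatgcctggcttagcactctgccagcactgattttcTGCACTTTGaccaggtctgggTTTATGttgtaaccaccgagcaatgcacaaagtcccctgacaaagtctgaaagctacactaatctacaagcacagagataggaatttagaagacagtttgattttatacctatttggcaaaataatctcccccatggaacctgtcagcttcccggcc

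At the Met promoter (chr6:17413367-17414815, first exon) the ATAC scores were 115, 102, 86 and 103 in CV, 128, 138, 146 and 130 in ENR and 121, 115, 148 and 146 in EN (F test, adjusted p = 0.011). H3K27ac there was 126, 107 and 155 in CV, 159, 158 and 181 in ENR and 85, 98 and 85 in EN. EN was thus lowest for H3K27ac, as for the CPM, and not for ATAC. H3K27ac differed by -0.89 between EN and ENR on the log2 scale (adjusted p = 0.03, limma), which was lost without any 1 of the 3 ENR or the 3 EN libraries. The ATAC call was lost without CV replicate 3, without the trend of the spread on the mean and after quantile normalization.

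At Lrig1, 1 of 20 regions was higher and 7 were lower in EN than in CV for ATAC. Of all regions, 19.6% were higher and 15.6% lower. At an internal start site in an intron (chr6:94630937-94631546) the scores were 55, 65, 50 and 69 in CV, 32, 32, 30 and 41 in ENR and 9, 7, 6 and 15 in EN, falling without overlap (EN against CV -2.63, SE 0.22, adjusted p = 9e-08, limma). The outer promoter (chr6:94649652-94650494) had 124, 127, 125 and 148 in CV and 156, 166, 137 and 148 in EN and did not pass (F test, adjusted p = 0.23). A further intronic region (chr6:94642474-94642769) was open mainly in ENR, with 8, 12, 8 and 8 in CV, 24, 19, 31 and 24 in ENR and 4, 4, 4 and 5 in EN. This order, ENR above CV above EN, was that of Lrig1 mRNA, so its central 300 bases (mm9, chr6:94642472-94642771, plus strand) are shown, and none of the motifs searched was found in them.
Lrig1 intron: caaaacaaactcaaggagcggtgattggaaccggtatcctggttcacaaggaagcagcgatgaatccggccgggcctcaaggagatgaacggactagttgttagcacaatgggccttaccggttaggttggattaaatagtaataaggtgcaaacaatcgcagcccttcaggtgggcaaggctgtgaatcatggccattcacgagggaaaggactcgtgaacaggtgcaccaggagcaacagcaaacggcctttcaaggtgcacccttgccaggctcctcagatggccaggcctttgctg

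The Ptk6 promoter was open in ENR, where the transcript was low, as well as in EN, where it was high. The region upstream of the start site (chr2:180937688-180938033) had ATAC scores of 1, 4, 2 and 1 in CV, 24, 16, 14 and 15 in ENR and 21, 25, 14 and 29 in EN. It was almost closed in CV and open to overlapping degrees in ENR and EN. EN exceeded CV by 3.02 (SE 0.31, adjusted p = 7.4e-07, limma) and ENR by 0.33 (adjusted p = 0.47), and CV lay 2.68 below ENR on the log2 scale, whereas Ptk6 mRNA lay 0.43 below. The 300 bases at its centre (mm9, chr2:180937711-180938010, plus strand, gene on minus) are shown for this difference between promoter and transcript and hold none of the motifs searched.
Ptk6 upstream promoter: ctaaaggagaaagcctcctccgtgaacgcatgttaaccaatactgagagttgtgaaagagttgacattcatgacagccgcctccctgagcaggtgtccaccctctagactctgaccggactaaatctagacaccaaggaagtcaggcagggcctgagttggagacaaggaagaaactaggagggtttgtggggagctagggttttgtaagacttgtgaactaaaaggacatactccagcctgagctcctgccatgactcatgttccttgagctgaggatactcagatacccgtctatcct

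Ptk6 regions closer to or in the gene were highest in EN. Over the first exon (chr2:180937231-180937423) the scores were 5, 4, 8 and 4 in CV, 13, 13, 9 and 14 in ENR and 20, 19, 20 and 18 in EN (EN against CV 1.74, SE 0.23, adjusted p = 1.4e-05, limma). A region over an exon within the gene (chr2:180931576-180932052) had 6, 10, 13 and 23 in CV, 13, 14, 16 and 10 in ENR and 49, 37, 41 and 51 in EN. There CV and ENR overlapped and EN stood apart from both (EN against CV 1.83, SE 0.28, adjusted p = 5.7e-05). H3K27ac at that region was 2, 19 and 6 in CV, 5, 8 and 4 in ENR and 42, 25 and 21 in EN (F test, adjusted p = 0.033). The H3K27ac call was lost after quantile normalization and without any 1 of CV replicate 5, the 3 ENR and the 3 EN libraries.

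**Figure D4:**
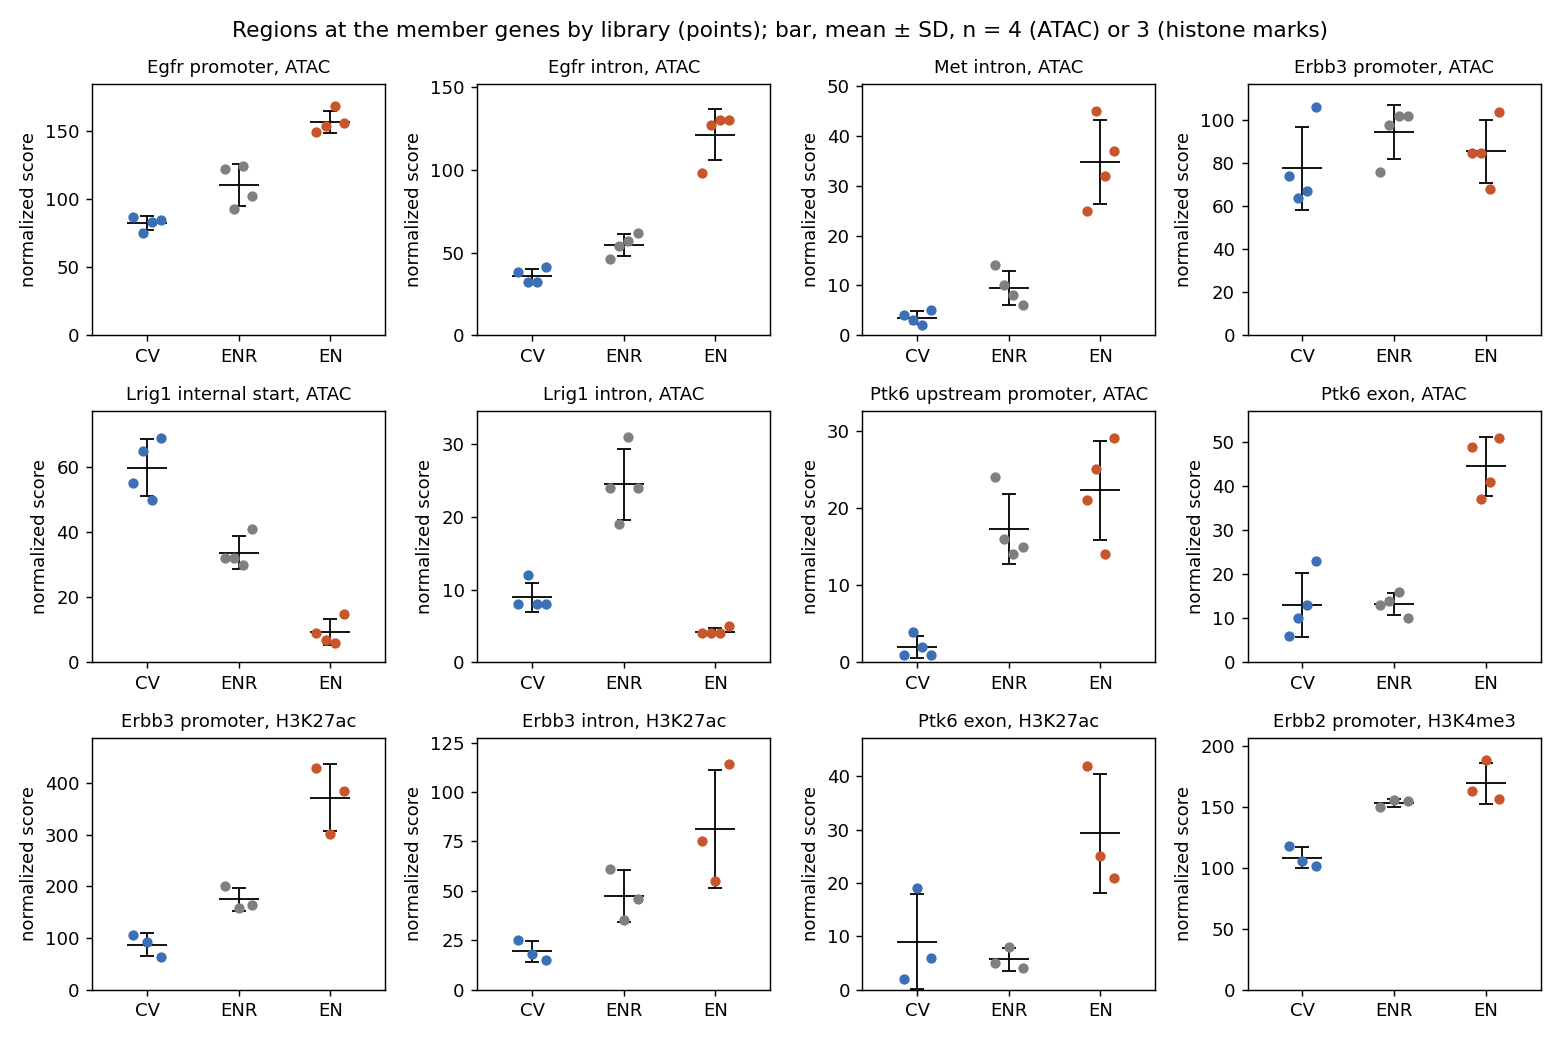
Each panel plots the deposited normalized score of 1 region by library, on a linear axis from 0, with the mean and SD (n = 4 for ATAC, n = 3 for histone marks). The Egfr promoter is most open in EN at 149 to 168, the Ptk6 upstream promoter is open in ENR and EN but at 1 to 4 in CV, and the Erbb3 promoter gains H3K27ac, from 63 to 106 in CV to 302 to 430 in EN, with overlapping ATAC scores.

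At the adaptor Grb2, 3 of 10 regions differed in ATAC, where 39.7% of all regions did, and none of its 3 promoter regions was among them. The Grb2 region with the lowest p (chr11:115531848-115531965) had scores of at most 4 in any library. At Shc1, 0 of 5 regions differed by limma's F test, and 0 had an unadjusted p under 0.05, with 128, 145, 141 and 142 in CV and 172, 174, 124 and 143 in EN at its promoter (chr3:89221496-89223308). That region also lies at the start sites of other genes, so it cannot be assigned to Shc1 alone. At Errfi1, 1 of 6 regions differed, in an intron (chr4:150234721-150234927), with 8, 7, 11 and 12 in CV and 3, 1, 3 and 4 in EN (-1.53, SE 0.32, adjusted p = 0.00094).

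**Figure D5:**
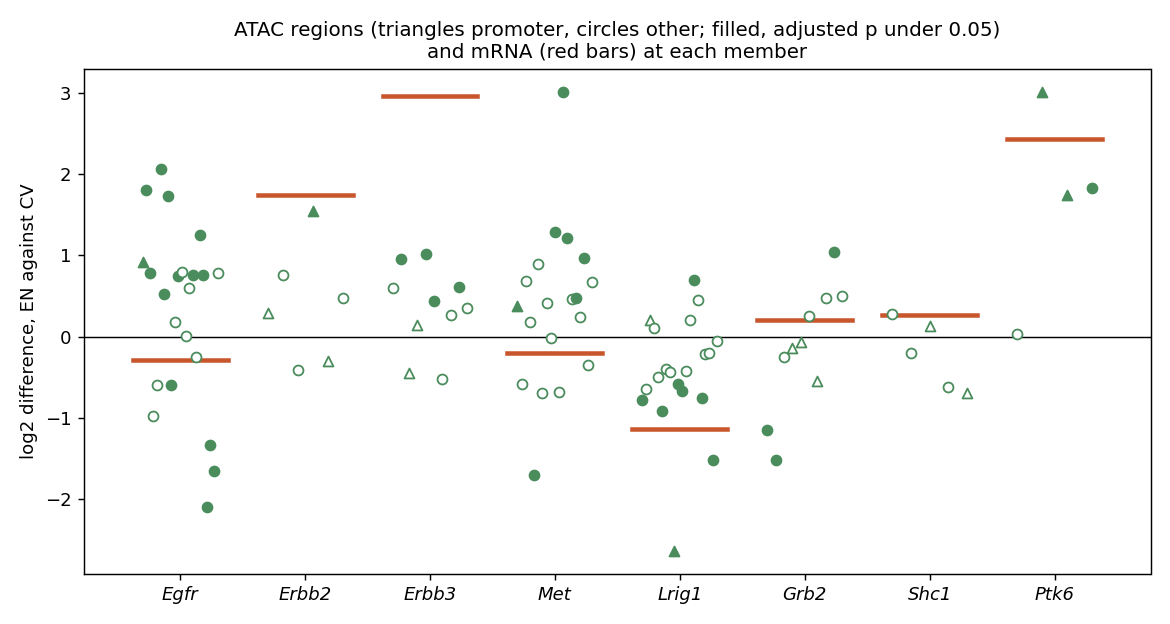
The log2 difference in ATAC score of EN against CV (vertical axis) is drawn for each of the 96 regions by gene, with triangles for promoter regions, circles for others, filled symbols for an adjusted p under 0.05 and a red bar for the mRNA. At Ptk6 the 3 filled regions and the mRNA are all above 0, at Lrig1 7 of 8 filled regions and the mRNA are below 0, and at Egfr 10 filled regions are above 0 while the mRNA is at -0.28.

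The motif searched as HNF4-type was in 17 of the 96 windows (17.7%), against 14% of 94340 windows of 300 bases over all regions. The TCF/LEF-type letters ATCAAAG were in 11 windows (11.5%) against 5.57%, and the CDX-type letters TTTATG in 17 (17.7%) against 17.4%. These are matches of letters on both strands and not bound sites.

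Hnf4g, a nuclear receptor of enterocytes, was mapped by ChIPmentation in 1 library per culture, so there was no test. The libraries held 84340 reads in regions in CV, 352600 in ENR and 1816497 in EN, and 3 reads correspond to 35.6 RPM (reads scaled to a common total of reads in regions) in CV and 1.65 in EN. The Erbb3 promoter had 6, 27 and 209 reads in CV, ENR and EN, the last at the 98.9th percentile of raw reads over all regions. That was 71.1 RPM in CV (26.1 to 155), 76.6 in ENR (50.5 to 111) and 115 in EN (100 to 132). These ranges and those that follow are 95% exact Poisson intervals, counting error only. The Met promoter had 4, 39 and 191 reads, or 47.4 (12.9 to 121), 111 (78.7 to 151) and 105 RPM (90.8 to 121). The Erbb2 promoter had 6, 30 and 178 reads, or 71.1 (26.1 to 155), 85.1 (57.4 to 121) and 98.0 RPM (84.1 to 113). At each of these promoters the CV interval held the EN value. The Met and Erbb2 promoters lay at the 98.7th and 98.5th percentiles in EN. From CV to EN, Erbb2 mRNA changed by 1.75 and Met mRNA by -0.19 on the log2 scale with edgeR. The Met change was not called with DESeq2. On the deposited copies the values were 2.63 and 0.55, where the median of all transcripts was 0.62. A relation between Hnf4g reads and mRNA was not tested. The percentiles were not corrected for the width of a region, and the Erbb3, Met and Erbb2 promoter regions span 1587, 1448 and 1860 bp. The Egfr promoter had 0, 4 and 50 reads (27.5 RPM in EN, 20.4 to 36.3) and the outer Lrig1 promoter 2, 8 and 97 (53.4, 43.3 to 65.1). The upstream Ptk6 promoter had 0, 0 and 17 (9.36, 5.45 to 15.0) and the Met intron 0, 1 and 31 (17.1, 11.6 to 24.2). With 0 reads in CV, the interval there reached 43.7 RPM. The Egfr intron had 10, 7 and 44 reads. That was 119 RPM in CV (56.9 to 218), 19.9 in ENR (7.98 to 40.9) and 24.2 in EN (17.6 to 32.5), the highest in CV. For the CV library most of these counts are at or near the limit that 3 reads set.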

How the data were processed

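RNA was measured in 12 libraries (4 each of CV, ENR and EN). For each transcript the authors deposited expected counts and TPM, as kallisto 0.43.0 estimated them over an index of transcripts whose proteins had been quantified, and mRNA copy numbers set from spike-ins, which are treated as scores. The ATAC-seq and histone files hold scores as the authors deposited them, normalized with DESeq2 and rounded to whole numbers, per region of the union of MACS2 2.0 peaks on mm9 after alignment with BWA and removal of duplicates with Picard. The Hnf4g file holds counts of reads in each region, deposited as raw values.

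Expected counts were rounded and tested with edgeR 4.0.16 in R 4.3.3 (TMM, quasi-likelihood, 12 libraries in 1 fit, common dispersion 0.00475, Benjamini-Hochberg over 9288 transcripts detected in 4 or more libraries, calls at an adjusted p under 0.01). The 92 spike-ins were left out of library sizes. Scores were tested as log2(score + 1) with limma 3.58.1 (moderated F test with a trend, regions above 0 in at least 3 libraries, calls at an adjusted p under 0.05). Alternatives used DESeq2 1.42.0, limma on TPM and copies, other scalings and filters, and each library left out. Ratios were tested with scipy 1.17.1. Start sites came from the GENCODE annotation of mm9. Tested on simulated data for EN against CV, the RNA test found 74% of 1.5-fold and 99% of 2-fold changes. It made 1 false call among 9245 transcripts. The ATAC test found 98% of 2-fold changes in simulated data. Whether that share holds at regions with low scores was not tested.

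The genes, lists and motifs were chosen with earlier results of these data known. All transcripts of the 9 genes were named. From each pathway list, the called transcripts with the largest rise and the largest fall from CV to EN and a mean of at least 5 CPM were named, and of the regions all promoters and, per gene, the other region with the lowest ATAC p. The 2 transcripts most like each member could be named. Same-numbered libraries of different cultures did not deviate together in RNA (mean correlation 0.0133, from -0.059 to 0.0955), so the replicate number was not used as a block. The 10 further histone libraries, Hnf4g knockout RNA and proteomics were not used here.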

Additional observations from a re-analysis of the deposited data

Results flagged for a closer look

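In groups of 4 libraries, a library was set apart when its gap to the nearest other, divided by the range of the group, was above Dixon's 95% critical value, and 17 of 111 groups met this, where chance gives about 1 in 20. All 17 were ATAC scores, and several are low whole numbers in which the other 3 libraries are tied. At the Egfr intron, EN replicate 1 scored 98 against 127 to 130. At the Erbb3 promoter, ENR replicate 1 scored 76 against 98 to 102, and at the outer Lrig1 promoter CV replicate 4 scored 148 against 124 to 127. At the Shc1 upstream region, CV replicate 4 scored 59 against 64 to 65. At the Errfi1 promoter region upstream of the start, EN replicate 3 scored 8 against 24 to 26, and at the one in the first exon ENR replicate 3 scored 8 against 6.

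At Erbb2, the intronic region had 5 in CV replicate 1 against 10 to 11 and 9 in ENR replicate 3 against 16. The internal start site had 5 in CV replicate 3 against 2, and the one after it had 2 in ENR replicate 1 against 1 and 0 in EN replicate 2 against 1. At the Lrig1 intron, CV replicate 2 had 12 against 8 and EN replicate 4 had 5 against 4. At Grb2, the intronic region had 2 in CV replicate 2 against 0 and 4 in ENR replicate 2 against 3, the internal promoter region had 10 in ENR replicate 1 against 16 to 17, and the upstream promoter region had 11 in CV replicate 3 against 9.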

How the results depend on the processing

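With spike-in scaling the log2 differences that turned were Grb2 for EN against CV (-0.20) and against ENR (-0.069), Shc1 (-0.16) and Rhbdf2 (-0.023) for EN against CV. On log2(TPM + 1) they were Grb2 (-0.11) and Shc1 (-0.057) for EN against CV and Met for CV against ENR (0.044), and on log2(TPM + 5) the same 3 (-0.084, -0.050 and 0.036). On the deposited copies they were Egfr (0.39 and 0.15) and Met (0.55 and 0.71) for EN against CV and ENR, Met for CV against ENR (0.16) and Shc1 for EN against ENR (0.95). These scalings moved the median of all transcripts too, and relative to it 15 of these 16 differences stayed on the side they had in the edgeR test, the exception being Shc1 for EN against ENR on the copies (0.07 above, against -0.05). For CV against ENR, spike-in scaling called 3 of the 8 members and 2636 of all transcripts, and the copies 2 and 1657, against 6 and 5569. Leaving out 1 library gave 5 to 7 members (6903 to 7071 transcripts) for EN against CV, 7 (6543 to 6765) for EN against ENR and 5 to 6 (5187 to 5668) for CV against ENR. Each remaining alternative kept these counts within 1.5 times.

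With the thresholds the study used for its regions, 5 ATAC, 1 H3K27ac and 0 H3K4me3 regions passed. H3K27ac gave 0 without the trend and 0 with the replicate block, and 4 to 8 with a library left out (4 without EN replicate 2, 5 without EN replicate 3, 4 without EN replicate 4). H3K4me3 gave 0 after quantile normalization and 2 to 6 with a library left out (2 without EN replicate 2). ATAC gave 39 to 45 and H3K27me3 0 with a library left out. With the replicate block the counts were 7, 7 and 6 members for RNA, 46 ATAC and 3 H3K4me3 regions. The Erbb2 promoter was not among those H3K4me3 regions. Same-numbered libraries correlated in their deviations in ATAC, with a mean r of 0.17 (0.0695 to 0.46 over 12 pairs, -0.0556 for other pairs), but not every pair was above 0.1 and not every library was most like its own number. In the histone marks the mean was -0.00781 to 0.0501. The Erbb3 promoter lost its H3K27ac call for EN against CV with the replicate block (1.82) and kept it after quantile normalization (1.48). For the ratios, 3 against 4 libraries cannot go below 0.0571 and 4 pairs cannot go below 0.125, so leaving out a library and pairing could not be tested there. Depth limits Ptk6 in CV and ENR and Hnf4g in CV.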
